A study of Homo sapiens with 16 samples.

Results

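The loci described here are places in A549 lung carcinoma cells, an established human cell line, where folded G-quadruplex (G4) DNA was called after BAZ2A knockdown and in neither of the other G4 maps, and where control cells carried H3K4me3. G4 DNA was mapped by CUT&Tag, in which an antibody on chromatin guides a transposase to cut and tag the DNA beside it, with the antibody BG4 in cells given control siRNA (siControl), siRNA against BAZ2A (siBAZ2A) or siRNA against BAZ2B (siBAZ2B). All cells received 71 nM siRNA for 48 hours, and H3K4me3 was mapped in siControl cells only. Each of the 4 groups had 4 replicates and 1 deposited peak list. Per the labels, it keeps peaks that recurred among the replicates, at their positions in the largest replicate list. The values below thus carry no replicate error and are not known to summarise all 4 replicates. A locus absent from a list can still have been called in a replicate. Differences are between sets of loci, with intervals for counting error over loci, and none tests an effect of a knockdown. How far either protein was depleted was not analysed here. Overlapping BG4 peaks of the 3 lists (sharing 1 base or more) were merged into 6206 loci. The siBAZ2A list alone held 755 of them (12.2%), and 655 of these touched an H3K4me3 peak. These 655 siBAZ2A-only loci were 11.9% of the 5517 BG4 loci on H3K4me3, and they were chosen by the presence and absence of BG4 peaks, so those counts are a description and not a finding. BG4 loci on H3K4me3 held by siBAZ2B alone numbered 995 (18.0%).

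A G4 forms where runs of guanines on 1 strand stack into planar tetrads, and in human chromatin such structures are found mostly in the nucleosome-depleted DNA of active promoters. H3K4me3, trimethylated lysine on the tail of histone H3, marks the nucleosomes that flank the start sites of active or poised genes. BAZ2A (also called TIP5) partners the SNF2H ATPase in a nucleosome remodelling complex known for silencing ribosomal RNA genes, and BAZ2B is its bromodomain-containing relative. Because the peaks are in hg19 and no genome or annotation of that build was used here, loci are named by position, without genes or sequences.

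The siBAZ2A-only loci were weak and narrow members of the siBAZ2A list. Each held exactly 1 siBAZ2A peak. The fold enrichment that the authors' peak caller gave these peaks had a median of 5.86 (quartiles 5.15 and 6.76) and ran from 3.25 to 10.3, against a median of 7.01 for the whole list of 4257 peaks. Their median rank by fold was 3213, and the highest rank was 334. In the weakest quintile of the list lay 273 of the 655 (41.7%), and in the strongest quintile 15 (2.29%). The confidence of the call followed: 349 loci (53.3%) reached a −log10 q of 5 and 38 (5.80%) reached 10.

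Among siBAZ2A peaks on H3K4me3, both fold and width were lowest where no other list held the locus. The median fold was 6.29 at the 209 loci shared with siControl alone, 6.64 at the 872 loci shared with siBAZ2B but not siControl, and 7.90 at the 2207 loci of all 3 lists. Median peak width was 414 bp in the siBAZ2A-only loci, 490 bp and 507 bp in the classes shared with 1 other list, and 639 bp in the class of all 3. The smallest peak in the siBAZ2A list was 299 bp wide, and 98 of the siBAZ2A-only loci had this width. Within each quintile of siBAZ2A fold, the siBAZ2A-only peaks also had a smaller median width than those of all 3 lists, from 401 bp against 562 bp in the weakest quintile to 442 bp against 660 bp in the strongest. Loci held by 1 list were weak and narrow in the other lists too. In their own lists, siBAZ2B-only loci had a median fold of 5.54 and width of 430 bp, against 6.74 and 681 bp at loci of all 3 lists, and siControl-only loci had 5.74 and 406 bp, against 7.65 and 665 bp. These BG4 values come from the lists that chose the loci, so they are given as a description.

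**Figure D1:**
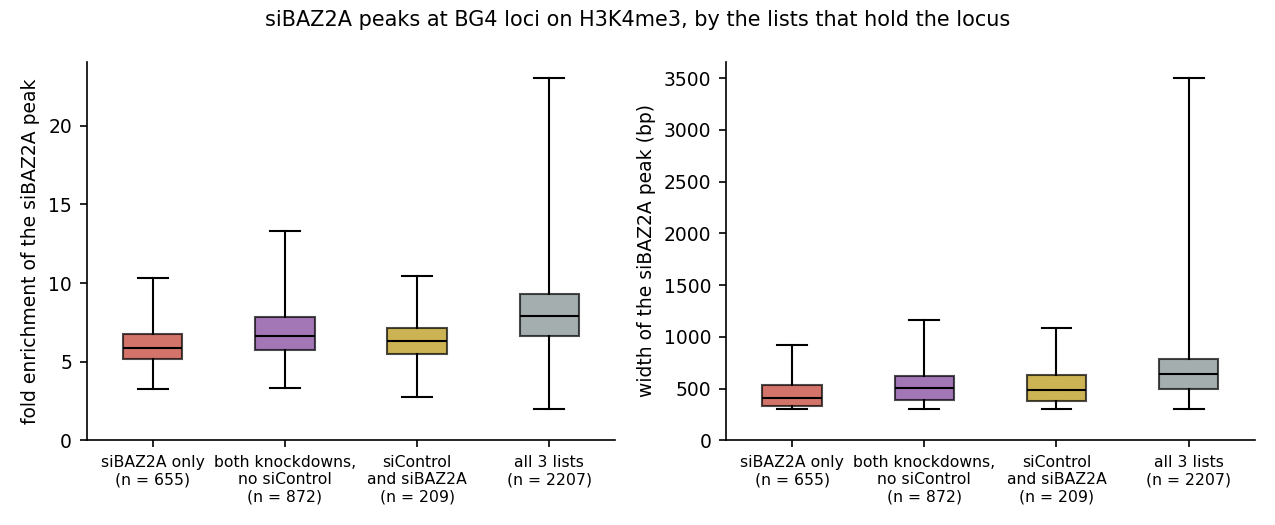
Fold enrichment (left) and width in bp (right) of the strongest siBAZ2A peak at each BG4 locus on H3K4me3, grouped by the lists that hold the locus. Boxes show quartiles, lines medians and whiskers the lowest and highest value. The 655 siBAZ2A-only loci have the lowest median fold (5.86) and width (414 bp), and their ranges overlap those of every other class.

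The strongest siBAZ2A-only locus lay at chr8:107282265-107282780, with a fold of 10.3. It sat inside an H3K4me3 peak 1642 bp wide, with no other H3K4me3 peak within 100 kb, and the nearest BG4 peak of siControl or siBAZ2B was 2172715 bases away. Chromosome 6 held 3 of the next 5, at chr6:30034630-30035127 (fold 10.2), chr6:43027096-43027644 (9.96) and chr6:82957650-82958023 (9.73). The others were chrX:153059528-153059936 (9.97) and chr1:22109739-22110124 (9.94). These loci had little in common in their H3K4me3. The peak under chr6:30034630-30035127 was short and strong (969 bp, H3K4me3 fold 12.1), and that under chr1:22109739-22110124 was long and weaker (1884 bp, fold 6.79).

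A further 9 loci completed the 15 of highest fold. Tied at a fold of 9.28 were chr13:49106895-49107284 and chrX:16737598-16738039. Next came chr22:30987898-30988328 (9.21), chr1:55007924-55008440 (9.16) and chr16:50099881-50100381 (9.15). The locus at chr12:26427570-26427941 (9.10) ran past the edge of a narrow H3K4me3 peak of 571 bp, sharing 291 of its 372 bases. The last 3 were chr2:88354845-88355359 (9.05), chr4:73935118-73935564 (8.97) and chr1:8938818-8939248 (8.93). In the last of these the BG4 summit stood 1101 bp from the H3K4me3 summit, whereas at chr2:88354845-88355359 the summits were 5 bp apart.

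At the weak end of the range stood chr8:145690574-145690933 (fold 3.25), chr19:49653309-49653794 (3.30) and chr12:64845695-64845993 (3.48), followed by chr17:48450176-48450474 (3.60) and chr8:145704410-145704708 (3.68). Of these 5 loci, 3 had a siControl BG4 peak close by, at 441, 228 and 484 bases for the first, second and last. The widest siBAZ2A-only locus, chr14:64970402-64971320, was 919 bp wide with a fold of 6.00, and the next, chr16:4743248-4744162, was 915 bp wide with a fold of 4.54. The other 3 of the 5 widest were chr9:132175555-132176443 (889 bp), chr11:45921076-45921963 (888 bp) and chr14:53018904-53019773 (870 bp), all with folds under the list's median.

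Few of the 655 loci stood near the limits of the rule in position. Which of them were kept depended more on the strength of the calls. With a −log10 q of at least 5 in every BG4 list 349 of the 655 were kept, and with lists of equal length 364. The overlap counted as sharing changed the size of the set. With a reciprocal overlap of 50% required, all 655 were kept and the set grew to 885. The rule thus leaves out further siBAZ2A peaks that overlap a peak of another list by less than that. The smallest overlap with H3K4me3 was 105 bases, at chr12:54608475-54608791, followed by 125 at chr8:40207557-40207855, 170 at chr19:47930440-47930935, 177 at chr2:38978794-38979115 and 192 at chr14:94812133-94812457. Just outside, the siBAZ2A-only loci nearest to H3K4me3 without touching it were chr19:3176996-3177344, 194 bases away, chr16:84652356-84652719 (371 bases) and chr11:118782756-118783146 (467 bases), then chr9:136010541-136011023 (933 bases) and chr17:76311482-76311971 (1011 bases). On the side of the other BG4 lists, the siBAZ2A-only locus closest to a siBAZ2B peak was 62 bases from it (chr2:38978794-38979115). The siBAZ2A peak on H3K4me3 that failed the rule by the fewest shared bases shared 40 with another list (chr16:75467003-75467467). The 100 siBAZ2A-only loci outside H3K4me3 had a median fold of 5.82, close to the 5.86 of those on it.

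Almost every siBAZ2A-only locus was the single G4 call of its H3K4me3 region. The 655 loci lay on 652 H3K4me3 peaks, 3.51% of the 18596 in the list, and each touched exactly 1. A second BG4 locus holding a siControl or siBAZ2B peak was on the same H3K4me3 peak for 17 loci, 2.60% (95% Wilson interval 1.63 to 4.12, which like all intervals here covers counting error over loci only). For 8 loci the neighbour held a siControl peak and for all 17 a siBAZ2B peak. To compare classes alike, another BG4 locus of any list was counted, which gave 3.51% for siBAZ2A-only loci. The share was 1.13% for loci of all 3 lists, a difference of 2.38 points (95% Newcombe interval 1.10 to 4.12). For siBAZ2B-only loci it was 2.61%, a difference of 0.898 points (−0.762 to 2.79), and for siControl-only loci 3.91% (−0.403 points, −3.58 to 2.01). Loci of all 3 lists were wider (median 822 bp against 414 bp), and the classes were not matched for this. How close 2 peaks may lie and still count as separate loci bears directly on all these shares. It was varied for the first share, 2.60%. With peaks up to 1 kb apart merged that share was 0%, and with a reciprocal overlap of 50% required for sharing it was 27.8%, since that setting splits overlapping peaks into separate loci.

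The 17 loci were spread over wide H3K4me3 regions for the most part. The locus at chr17:7745060-7745510 lay 65 bases from a siBAZ2B peak, on an H3K4me3 peak of 3584 bp of width rank 5 in the list. At chr20:305739-306442 the siBAZ2B peak was 453 bases away, on the H3K4me3 peak of width rank 8 (3521 bp). At chr5:54830085-54830407 (fold 7.75) a siControl peak was 220 bases and a siBAZ2B peak 155 bases away, and at chr7:104654185-104654541 (fold 7.54) they were 474 and 617 bases away. The remaining loci of the 5 closest to another list were chr1:109817304-109817602 (64 bases from siBAZ2B), chr11:518534-519057 (106 bases from siControl) and chr12:124017855-124018348 (145 bases from siBAZ2B).

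On 3 H3K4me3 peaks there were 2 siBAZ2A-only loci each. On chromosome 1 they were chr1:161102324-161102622 (fold 5.63) and chr1:161102779-161103077 (5.72), both at the smallest width of 299 bp. On chromosome 2 they were chr2:62080901-62081494 (6.91) and chr2:62081793-62082118 (6.05), and on chromosome 12 chr12:62996627-62996949 (5.93) and chr12:62997096-62997394 (4.15). Peaks of a pair share 1 H3K4me3 region and are not independent.

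Wide H3K4me3 regions carried siBAZ2A-only loci most often. To leave out regions where another list already had a G4 peak, the share was taken over the 13763 H3K4me3 peaks free of siControl and siBAZ2B BG4 peaks, of which 636 (4.62%) had a siBAZ2A peak. It rose from 2.11% (1.67 to 2.65) in the narrowest quintile of H3K4me3 width through 2.55%, 4.63% and 6.84% to 9.26% (8.09 to 10.6) in the widest. A wider region also offers more bases in which a peak can fall. By fold of the H3K4me3 peak the share was lowest in the weakest quintile, at 3.39% (2.81 to 4.10), and then 4.54%, 4.99%, 5.43% (4.63 to 6.35) and 4.92% (4.17 to 5.79).

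The loci of siBAZ2B alone were set beside them, a comparison chosen after its values were seen. Over the 14103 H3K4me3 peaks free of siControl and siBAZ2A BG4 peaks, the share with a siBAZ2B peak rose to 12.1% (10.9 to 13.4) in the fourth quintile of width and was 10.2% (9.03 to 11.6) in the widest. By H3K4me3 fold it rose at every step, from 4.12% to 8.74%. Put as shares of the loci themselves, 31.6% of siBAZ2A-only loci (28.2 to 35.3) and 23.1% of siBAZ2B-only loci (20.6 to 25.8) lay on the widest quintile of H3K4me3 peaks, a difference of 8.49 points (4.10 to 12.9). On the strongest quintile by fold lay 20.6% and 25.3%, a difference of −4.72 points (−8.76 to −0.540). With only the stronger 50% of H3K4me3 peaks in use the first difference was 2.00 points (−3.94 to 8.12) and the second −0.370 points (−5.50 to 5.05). The quintiles were then drawn anew within those peaks, so their limits differ from the ones above. With BG4 peaks of −log10 q of at least 5 the second difference was −1.92 points (−6.57 to 2.84). Wider H3K4me3 peaks under the siBAZ2A-only loci tended to have lower fold (Spearman −0.385 across the 655 loci, which share 1 H3K4me3 list), so the differences in width and fold are not separate observations. The widest quintile held 28.8% of siControl-only loci (siBAZ2A-only minus class 2.78 points, −3.76 to 8.96) and 31.5% of loci of both knockdowns (0.0664, −4.61 to 4.80). The strongest held 19.9% (0.682, −5.16 to 6.04) and 22.8% (−2.21, −6.33 to 2.00). For loci of all 3 lists the shares were 40.2% (−8.63, −12.6 to −4.45) and 17.1% (3.53, 0.184 to 7.13). The contrast with siBAZ2B-only loci thus does not set siBAZ2A-only loci apart from every class. Each knockdown is 1 list, so the knockdown and the list it comes from cannot be told apart here.

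**Figure D2:**
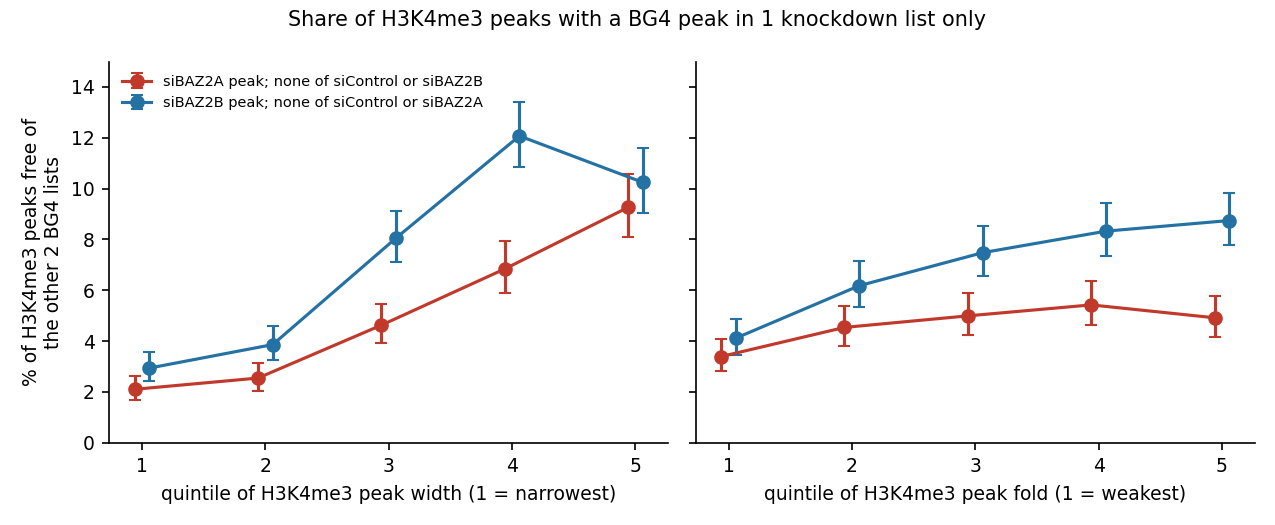
Percentage of H3K4me3 peaks that have a BG4 peak in 1 knockdown list, among H3K4me3 peaks with no BG4 peak in the other 2 BG4 lists, by quintile of H3K4me3 peak width (left) and of H3K4me3 peak fold (right). Bars are 95% Wilson intervals over H3K4me3 peaks. The siBAZ2A share rises to 9.26% in the widest quintile, and the siBAZ2B share is highest, 12.1%, in the fourth.

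Set beside the other classes, the H3K4me3 peaks under siBAZ2A-only loci were intermediate in width. Their median was 1359 bp (quartiles 1004 and 1699), against 1392 bp for loci of both knockdowns without siControl, 1483 bp for loci of all 3 lists and 998 bp for H3K4me3 peaks with no BG4 peak at all. The order against the loci of all 3 lists was kept within each quintile of siBAZ2A fold. Medians were 1387 bp against 1507 bp in the weakest quintile and 1342 bp against 1470 bp in the strongest. Fold was not equal within a quintile. The strongest ran from 8.85 to 23.3, and its 15 siBAZ2A-only loci reached no higher than 10.3. Median H3K4me3 fold was 8.26 under the siBAZ2A-only loci, 7.96 under those of all 3 lists and 8.03 in the whole H3K4me3 list. The narrowest quintile of H3K4me3 peaks held 10.8% of siBAZ2A-only loci and 5.53% of the loci of all 3 lists, a difference of 5.31 points (2.92 to 8.07). Other loci held by 1 list were near the siBAZ2A-only share. That quintile held 9.75% of siBAZ2B-only loci (siBAZ2A-only minus class 1.09 points, −1.85 to 4.20) and 12.5% of siControl-only loci (−1.62, −6.49 to 2.64). For loci of both knockdowns the share was 5.39% (5.45, 2.70 to 8.37).

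Within the siBAZ2A-only class, G4 peak strength had a weak positive correlation with H3K4me3 strength and next to none with H3K4me3 width. Across the 655 loci the Spearman correlation of BG4 fold was 0.138 with H3K4me3 fold and −0.0194 with H3K4me3 width, values given as a description since the loci share both lists. From the weakest to the strongest quintile of siBAZ2A fold, the median H3K4me3 fold was 8.06, 7.95, 8.87, 9.12 and 8.38. The loci on the 3 strongest H3K4me3 peaks show the spread. At chr12:51818608-51818978 an H3K4me3 fold of 17.2 (rank 18 of the list) came with a BG4 fold of 8.76, and at chr17:26220085-26220516 one of 16.1 came with 8.45. At chr16:28761714-28762024, with an H3K4me3 fold of 14.9, the BG4 fold was only 5.30. The 3 widest H3K4me3 peaks under such loci were weak in fold, at 3.72 (chr17:7745060-7745510), 3.77 (chr20:305739-306442) and 3.36 (chr17:47073493-47073965).

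Within the H3K4me3 region, the siBAZ2A-only summits lay close to the H3K4me3 summit, at distances much like those of the loci in all 3 lists. The median distance from BG4 summit to H3K4me3 summit was 123 bp (quartiles 52.5 and 275), against 119 bp (44.0 and 307) for the siBAZ2A peaks of loci in all 3 lists, and 118 bp for siBAZ2B-only loci in their own list. Summits lay within 100 bp of the H3K4me3 summit in 43.1% of siBAZ2A-only loci (39.3 to 46.9) and 45.1% of loci in all 3 lists, a difference of −2.08 points whose interval (−6.36 to 2.27) includes 0. They fell on the lower-coordinate side of the H3K4me3 summit in 342 of 655 loci (52.2%, 48.4 to 56.0). Strand was not used here, so upstream and downstream cannot be told apart. The BG4 summit stood outside the H3K4me3 peak in 9 loci. The whole locus was inside in 531 (81.1%), against 65.4% for the wider loci of all 3 lists, a difference of 15.6 points (11.9 to 19.1). Those loci join peaks of 3 lists, and classes were not matched for locus width, so this difference cannot be separated from width. Other loci held by 1 list were near the siBAZ2A-only share. It was 83.0% for siBAZ2B-only loci (siBAZ2A-only minus class −1.95 points, −5.81 to 1.79) and 76.5% for siControl-only loci (4.56, −1.02 to 10.6).

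Stronger siBAZ2A-only peaks were centred more closely, except in the top quintile with its 15 loci. From the weakest to the fourth quintile of siBAZ2A fold the median summit distance was 157, 117, 106 and 87.0 bp, over 273, 179, 127 and 61 loci, and it was 135 bp in the top quintile. In the loci of all 3 lists the same quintiles gave 154, 158, 139, 126 and 82.0 bp.

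**Figure D3:**
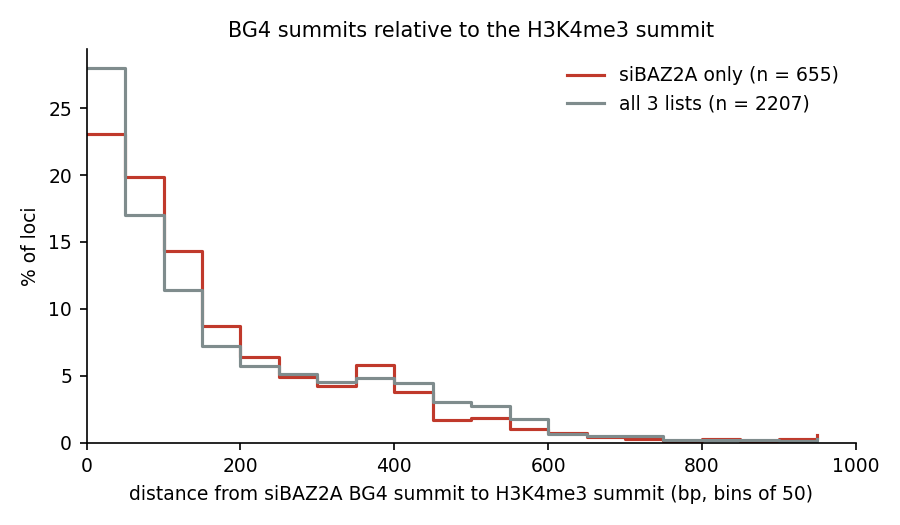
Distance in bp from the siBAZ2A BG4 summit to the H3K4me3 summit, in bins of 50 bp, as the percentage of loci for the 655 siBAZ2A-only loci and the 2207 loci of all 3 lists on H3K4me3. Both fall steeply from 0, with medians of 123 and 119 bp, and loci beyond 1000 bp are not drawn.

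The median siBAZ2A-only locus lay 83410 bases from the nearest G4 peak of either other list, and 353 of the 655 (53.9%) were under 100 kb from one. The median distance was 160940 bases to the nearest siControl peak and 95612 bases to the nearest peak of the longer siBAZ2B list. Within 1 kb of a peak of either list lay 19 loci (2.90%), within 10 kb 59 (9.01%), and beyond 1 Mb 40 (6.11%). The 5 most remote were chr7:16685390-16685794 (3958243 bases from the next G4 peak of either list), chr7:16460357-16460725 (3733210 bases), chr5:10441660-10441958 (3674528 bases), chr21:27107071-27107671 (3257109 bases) and chr12:16034900-16035319 (2881195 bases). Their folds, between 4.73 and 7.53, were those of ordinary siBAZ2A-only loci.

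**Figure D4:**
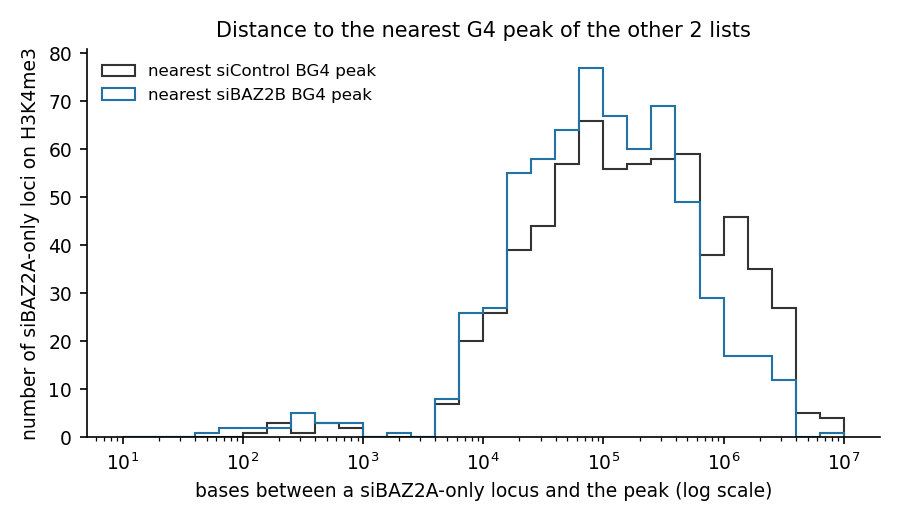
Number of siBAZ2A-only loci on H3K4me3 by the distance in bases (log scale) to the nearest siControl BG4 peak and the nearest siBAZ2B BG4 peak. The medians are 160940 and 95612 bases, and a small separate group of 19 loci lies within 1 kb of a peak of either list.

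Neighbouring G4 loci and H3K4me3 peaks were somewhat sparser around siBAZ2A-only loci than around those of all 3 lists. Another BG4 locus of any class was within 10 kb of 9.92% of siBAZ2A-only loci (7.86 to 12.5) and 14.7% of loci in all 3 lists, a difference of −4.76 points (−7.33 to −1.86). Another H3K4me3 peak within 10 kb was present for 22.1% and 26.7%, a difference of −4.60 points (−8.15 to −0.802). Against siBAZ2B-only loci the differences were −1.53 points (−4.50 to 1.59) and −1.18 points (−5.24 to 3.00). Runs of siBAZ2A-only loci, each within 100 kb of the next, numbered 39 and held 82 loci. Only 4 runs had 3 loci, at chr2:85765885-85822968, chr1:161102324-161172322, chr7:99679301-99775149 and chr19:58898179-59011096, and none had more.

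Chromosomes spanned a narrower range in siBAZ2A-only loci per H3K4me3 peak than in loci of all 3 lists, and the same held for siBAZ2B-only loci. With chromosome Y (2 loci) left aside, the share of a chromosome's H3K4me3 peaks that held a siBAZ2A-only locus ran from 1.88% (1.18 to 3.00) on chromosome 6 and 2.76% on chromosome 10 to 4.42% on chromosome 13 and 4.62% (3.48 to 6.11) on chromosome 12. For loci of all 3 lists it ran from 3.77% on chromosome 6 to 20.9% (18.7 to 23.2) on chromosome 19. For siBAZ2B-only loci it ran from 3.44% on chromosome 6 to 7.37% on chromosome 9. Chromosome 19 (3.41%) and chromosome 17 (3.12%), the highest for loci of all 3 lists, were close to the 3.51% of the whole H3K4me3 list in siBAZ2A-only loci. The interval of chromosome 6 lay below that 3.51%. On chromosome 13 the shares were alike, 4.42% (2.70 to 7.17) for siBAZ2A-only loci and 4.72% (2.93 to 7.53) for loci of all 3 lists.

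The same numbers can be read as shares of the G4 loci. Among BG4 loci on H3K4me3, 23.4% of the 64 on chromosome 13 were siBAZ2A-only, 11.7 points above the other chromosomes (2.97 to 23.4). The share was 15.1% of 504 on chromosome 1 (3.53 points, 0.527 to 7.02), and 8.11% of 456 on chromosome 17 (−4.10 points, −6.46 to −1.10) and 8.97% of 468 on chromosome 19 (−3.17 points, −5.62 to −0.105) lay below. Intervals on the other 20 chromosomes included 0, and none of the 24 was adjusted for their number. These shares also depend on how many loci of other classes a chromosome has. On chromosomes 17, 19 and 13, loci of all 3 lists were on 225, 257 and 16 H3K4me3 peaks. The siBAZ2A-only loci there were on 37, 42 and 15, and the siBAZ2B-only loci on 64, 58 and 14. The same shares were not computed for siBAZ2B-only loci, so these chromosomes are not shown to be particular to siBAZ2A-only loci. Within 5 Mb of a chromosome end, placed at the outermost peak of any list, were 12.7% of siBAZ2A-only loci (10.3 to 15.4) and 18.3% of loci in all 3 lists, a difference of −5.67 points (−8.56 to −2.47). The siBAZ2B-only loci had 13.2%.

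**Figure D5:**
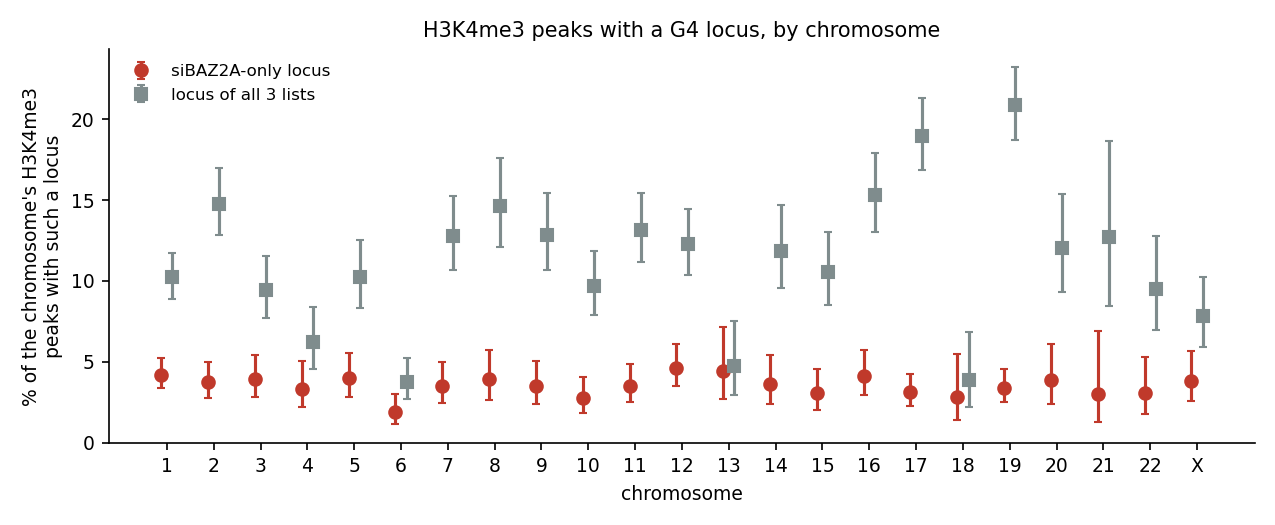
Percentage of each chromosome's H3K4me3 peaks that hold a siBAZ2A-only locus or a locus of all 3 BG4 lists, with 95% Wilson intervals over H3K4me3 peaks (chromosome Y not drawn). The siBAZ2A-only shares stay between 1.88% and 4.62%, whereas those of all 3 lists run from 3.77% to 20.9%.

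Contigs held 7 siBAZ2A-only loci, of which 5 lay on alternative haplotypes of the chromosome 6 histocompatibility region, such as chr6_dbb_hap3:1818058-1818489 (fold 6.64) and chr6_cox_hap2:4384010-4384406 (5.92). Reads from these haplotypes can also align to chromosome 6 itself, so their positions are uncertain. Both loci on chromosome Y, chrY:2559153-2559657 (8.60) and chrY:2477034-2477392 (6.64), lie in the region shared with chromosome X, and the same caution applies. The siBAZ2A-only locus chrX:2527033-2527392 (6.52) resembles the second in width (360 and 359 bp) and in H3K4me3 peak width (1461 and 1475 bp). The same site may thus be counted on both chromosomes.

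For a few loci the peak names show that the run behind a list called nothing there at all. Names carry a number that rises with position along each chromosome, and numbers missing between neighbours in a list are peaks the authors left out. Of the 646 siBAZ2A-only loci between a pair of siControl peaks, 37 (5.73%, 4.18 to 7.79) lay where the siControl numbers ran on without a gap. The share was 2.54% for loci of both knockdowns, a difference of 3.18 points (1.18 to 5.42), 5.19% for siBAZ2B-only loci, a difference of 0.539 points (−1.66 to 2.94), and 10.03% for H3K4me3 peaks without any BG4 peak, a difference of −4.30 points (−5.94 to −2.17). In the siBAZ2B numbers it was 85 of 649 (13.1%, 10.7 to 15.9), against 20.8% for H3K4me3 peaks without BG4, a difference of −7.72 points (−10.2 to −4.82), and 17.3% for siControl-only loci, a difference of −4.23 points (−9.68 to 0.661). For the other loci at least 1 peak was left out nearby, and whether it lay at the locus was not tested. A longer stretch between listed peaks leaves more room for a missing number, and several loci can share a stretch. The classes were not matched for this spacing.

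Both numberings ran on without a gap at 12 of the 655 loci (1.83%, 1.05 to 3.17). This joint share was not computed for other classes of loci or for H3K4me3 peaks without BG4, so it is a description only. The strongest of the 12 was chr2:88354845-88355359 (fold 9.05), which was also among the 15 of highest fold. The others had folds from 5.01 to 6.34 and included chr8:95486986-95487361 (6.34), chr16:1031102-1031574 (6.26), chr16:30406717-30407154 (6.09) and chr19:4812895-4813326 (5.93). One of the 12, chr17:43249081-43249446 (5.23), had peaks of both other lists on the same H3K4me3 region, 272 and 202 bases away. In the largest siControl and siBAZ2B replicates these 12 sites were thus not called, while the other replicates of those groups were not analysed here.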

How the data were processed

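BG4 and H3K4me3 CUT&Tag peaks of A549 cells were analysed as 1 deposited list per group of 4 replicates. MACS2 2.1.4 and Bowtie2 2.4.5 are named in the submitters' processing notes, beside SAMtools 1.15.1, Picard and bedtools, with hg19 and dm6 as builds. A deposited peak had to occur in 2 or more replicates and has its position in the largest replicate list, per the labels. The fold is the ratio the authors' peak caller deposited, compared only inside its own list, and the deposited q-value is given as −log10. Which labelled replicate the run in the peak names was is unknown, and so is read depth.

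Coordinates are 1-based hg19. A locus was assigned to the H3K4me3 peak with which it shared most bases, and a locus with several peaks of a list was described by the strongest. Wilson (shares) and Newcombe (differences) 95% intervals treat loci as independent, and no p-value was computed. Merging was tested on simulated lists.

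The loci and comparisons were chosen with earlier results of these data known, and the contrast with siBAZ2B-only loci by width and fold after its values were seen. Named were loci extreme in fold, width, H3K4me3 strength or width, overlap or distance to the other lists, those sharing an H3K4me3 peak and the longest runs. Loci without numbering gaps, on contigs or on chromosome Y were named after their values were seen. So were 2 with a neighbour on the same H3K4me3 peak and the chromosome X locus set beside those on chromosome Y. Planned G4 motif and gene list analyses were not run, as no hg19 sequence or annotation was used here. Scripts ran in Python 3.11.15 with statsmodels 0.14.6, NumPy 2.4.6, pandas 2.3.3, matplotlib 3.10.9 and SciPy 1.17.1.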

Additional observations from a re-analysis of the deposited data

How the results depend on the processing

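No paired analysis was possible because the deposited lists hold no values per replicate, so none could be left out either. The number of siBAZ2A-only loci on H3K4me3 stayed within 1.5 times 655 under 6 of 7 alternatives (520 to 885) and was 347 with the stronger 50% of H3K4me3 peaks, which offers fewer regions. With a −log10 q of at least 5 there were 547, of which 349 were among the 655. With lists of equal length there were 520, holding 364 of the 655. The share whose H3K4me3 peak held another list's BG4 locus was 1.65% with a −log10 q of at least 5, 0.962% with equal lengths, 27.8% with a reciprocal overlap of 50%, 0% with merging up to 1 kb and 1.15% with the stronger 50% of H3K4me3 peaks. With those stronger peaks, median H3K4me3 width was 1223 bp, median H3K4me3 fold 9.97 and median summit distance 106 bp. Reciprocal overlap gave a width of 1410 bp. Other values of these medians stayed inside their 95% intervals. Without depths or replicates, a weak locus missing from the siControl or siBAZ2B list cannot be told apart from one that fell just short of a call there.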
